A study of Bos taurus with 6 samples.

Results

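Among the small RNAs of cultured bovine fat cells, 179 rows of the deposited table carried the type "precursor". Each is named for a microRNA (miRNA) family of Rfam, a database that groups RNAs by shared sequence and structure. All 179 rows of that type were taken, out of 2213 rows in the table, and 1 of them is named for the trans-activation response element of lentiviruses and not for a miRNA. The comparison was between 3 libraries of preadipocytes and 3 of adipocytes. All cells came from Holstein cattle, were at passage 4 to 6 and grew in F12/DMEM with 10% serum and 1% antibiotics. The labels give induction with insulin, dexamethasone, rosiglitazone and IBMX as the step from preadipocytes to adipocytes, with no separate protocol for each group. The labels do not tie the replicates to separate animals or cultures. Every p-value therefore rests on a spread between libraries that may be technical only. No messenger RNA was measured, so the defining fat cell genes could not be checked.

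A miRNA is cut from a hairpin transcript, first in the nucleus by Drosha and then in the cytoplasm by Dicer. One strand of the resulting duplex then guides an Argonaute protein to messenger RNAs. Related hairpins make up a family, and the mature miRNAs of a family often share the seed that pairs with targets. In fat cells, miRNAs such as miR-143 and miR-103 are described as promoting differentiation, while miR-27 and let-7 are described as restraining it. The libraries were cut to 18 to 30 nt, which is shorter than a miRNA hairpin, so the rows count short reads given to a family and not whole precursors. The same table also holds 771 rows of known bovine miRNAs. No source used here states how reads were divided between an Rfam family row and the known miRNA rows of the same family.

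The 2209 rows that name an RNA held 15821040 to 24435565 reads per library. Levels are given as RPM, the reads in a row scaled to 1000000 of those reads, with no division by length. Differences are log2 values, positive where adipocytes were higher. Where a row had no read, its level could still be as high as 0.123 to 0.19 RPM (3 reads in each library, counting error only). The 4 rows that count reads by genome feature (exon, intron, repeat, intergenic) made up 18.5%, 18.9% and 5.29% of the whole table in preadipocyte replicates 1, 2 and 3 and 8.21% to 12% in adipocytes. Preadipocyte replicate 3 also stood apart from the other preadipocyte libraries in several family rows, so the results that rest on it are also given without it.

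The family rows took about double the share of reads in adipocytes. They held 11.3%, 11.9% and 10.1% of the reads in adipocyte replicates 1, 2 and 3. In preadipocyte replicates 1, 2 and 3 the share was 4.87%, 4.27% and 7.59%. Every adipocyte library lay above every preadipocyte library, and the means were 11.1% ± 0.927 and 5.58% ± 1.77 (SD, n = 3 each, two-sided exact permutation p = 0.1). The difference was 5.53 percentage points, and 6.54 without preadipocyte replicate 3. That p is the smallest that 3 libraries against 3 can give.

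A single row, mir-21, held more than all others together in every library. The mir-21 family is abundant in many cultured mesenchymal cells. Its row made up 64.3%, 69.1% and 68.8% of the family reads in adipocyte replicates 1, 2 and 3 and 50.3%, 54.2% and 73.7% in preadipocyte replicates 1, 2 and 3. Without mir-21 the other rows held 3.62% ± 0.446 of all reads in the adipocyte libraries and 2.12% ± 0.256 in the preadipocyte ones, again with no overlap (exact permutation p = 0.1, n = 3 each). Both the mir-21 row and the rest were thus higher in every adipocyte library than in any preadipocyte library.

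**Figure D1:**
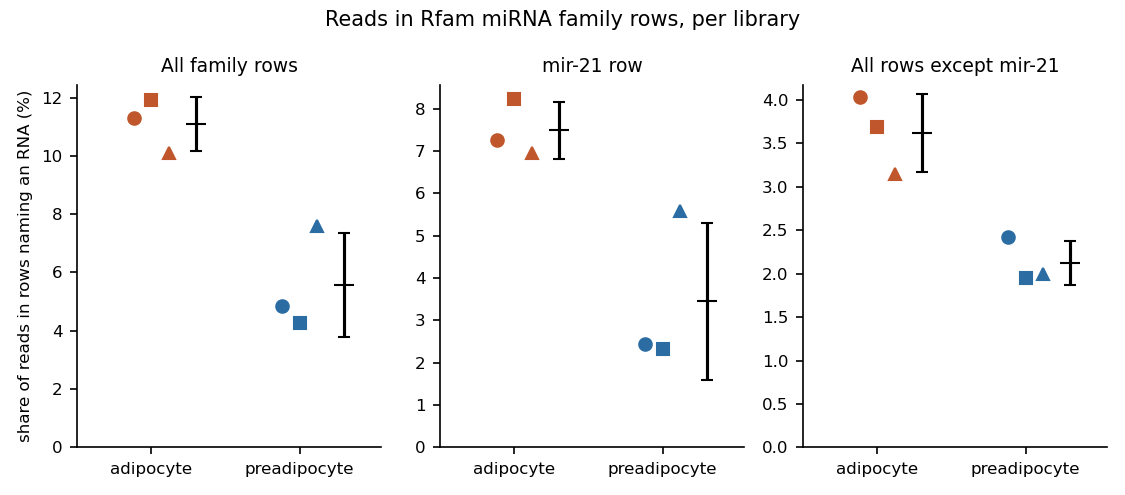
Share of the reads in rows naming an RNA (y axis, percent) that fell in all Rfam miRNA family rows, in the mir-21 row and in the other family rows. Each point is a library (circle, square and triangle for replicates 1, 2 and 3), and the black bars are mean ± SD of 3 libraries. Preadipocyte replicate 3 stands apart at 7.59% of reads, through its mir-21 row.

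The next most abundant rows were mir-27, mir-199, mir-23 and mir-143. The mir-27 family, which restrains fat cell differentiation through the master regulator PPARG, stood at 11107, 9093 and 7179 RPM in adipocytes and 8707, 6666 and 5284 RPM in preadipocytes. The mir-23 row, from the same transcripts, stood at 3941, 3818 and 3306 RPM and 3992, 2697 and 3070 RPM. For both the groups overlapped. The row of mir-143, a family of smooth muscle and mesenchymal cells, held 2091, 1409 and 1764 RPM in adipocytes and 985, 620 and 1612 RPM in preadipocytes, also with overlap. None of these 3 passed the test between the groups.

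Detection reached far below these levels. A read was found for 141 to 146 families in the adipocyte libraries, for 121 and 122 in preadipocyte replicates 1 and 2, and for 146 in preadipocyte replicate 3. Over all 6 libraries 102 families had a read in every library, while 53 had 10 reads or fewer in total and 25 had a single read. A total of 87 families passed the low-count filter and 92 did not, and the 87 were tested. A family that passes the filter through 1 group alone had to be high in that group.

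On table totals the Rfam rows of 8 families passed as higher in adipocytes and 0 as lower. In edgeR's quasi-likelihood test, fitted over all 948 rows that passed the filter, these 8 of 87 families had a Benjamini-Hochberg (BH) adjusted p below 0.05. They were mir-199, mir-10, mir-33, mir-26, mir-299, mir-181, mir-196 and mir-103/107. Over all rows tested, 6.54% passed in either direction and 5.8% as higher in adipocytes, against which the 8 of 87 are to be read. Differences were positive for 69 of the 87 families, with a median of 0.71, and the median of all rows tested was 0.22. Without adjustment, 26 families had p below 0.05, against 28.4% of all rows tested.

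How many families passed depended on the scaling and on single libraries. With TMM factors, which set the bulk of all rows to no change, mir-199 and mir-33 passed and 3.48% of all rows did. When the libraries were scaled on the family rows alone, 0 families passed in edgeR and 0.211% of all rows did, with 22 families and 33.4% of all rows at an unadjusted p below 0.05. On that scale the median family difference was -0.31 and that of all rows tested was -0.87. DESeq2, with its own size factors, called 19 of 85 families, 16 higher and 3 lower, and 20.9% of all rows. The count was 0 in edgeR without adipocyte replicate 1, adipocyte replicate 2, preadipocyte replicate 1 or preadipocyte replicate 2. In each of these 4 fits 0.105% of all rows passed. At an unadjusted p below 0.05 they gave 19 to 24 of the 87 families and 170 to 220 of all 948 rows. The count of families passing was 5 without adipocyte replicate 3, where 4.01% of all rows passed. It was 28, 27 of them higher, without preadipocyte replicate 3, where 22% of all rows passed.

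Groups that do not overlap were counted as well. Per table total, 36 of the 87 tested families lay higher in all 3 adipocyte libraries and 2 lay lower, where the shares over all rows tested were 27% and 8.54%. Per family reads alone, 13 lay higher and 22 lower, where the shares over all rows were 9.6% and 27.6%. The direction of the count therefore turned with the scale, as the median did.

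The row of mir-199 was the most abundant of the 8. This family, made from introns antisense within dynamin genes, marks mesenchymal cells. It held 10975, 10838 and 10234 RPM in adipocyte replicates 1, 2 and 3 and 3306, 2645 and 3216 RPM in preadipocyte replicates 1, 2 and 3. The libraries of each group were close together and far from those of the other. The log2 difference was 1.81 (SE 0.2, edgeR BH-adjusted p = 0.0253), with 1.53 under TMM (edgeR BH-adjusted p = 0.0371) and 0.75 per family reads (edgeR BH-adjusted p = 0.139).

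The largest difference among the 8 was that of mir-33. Its members lie in introns of the sterol regulators SREBF1 and SREBF2 and act on cholesterol export. The row held 473, 868 and 441 reads in adipocytes, or 27.4, 49.5 and 20.3 RPM. In preadipocytes it held 126, 68 and 87 reads, or 6.62, 4.3 and 3.56 RPM. The lowest adipocyte library was thus above the highest preadipocyte library, and the log2 difference was 2.74 (SE 0.49, edgeR BH-adjusted p = 0.0384). It was 2.45 under TMM, where it passed, and 1.60 per family reads, where it did not (edgeR BH-adjusted p = 0.11).

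The families mir-10 and mir-196, which lie in the HOX clusters, were among the 8. HOX genes set position along the body, and fat depots keep such patterns in culture. The mir-10 row stood at 924, 990 and 855 RPM in adipocytes and 255, 298 and 351 RPM in preadipocytes (log2 difference 1.61, SE 0.26, edgeR BH-adjusted p = 0.031). The mir-196 row stood at 58.9, 61.1 and 55.3 RPM and 12.4, 15.2 and 22.7 RPM (1.80, SE 0.36, edgeR BH-adjusted p = 0.0427). In each case the adipocyte libraries formed a narrow group above all preadipocyte libraries.

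Among the families described as promoting fat cell differentiation, mir-26, mir-181 and mir-103/107 rose beside mir-199. The mir-26 row held 1179, 1481 and 1016 RPM in adipocytes and 416, 390 and 501 RPM in preadipocytes (1.49, SE 0.27, edgeR BH-adjusted p = 0.0393). The mir-181 row held 684, 1028 and 655 RPM and 251, 315 and 274 RPM (1.49, SE 0.3, edgeR BH-adjusted p = 0.0427). The mir-103/107 family lies in introns of the pantothenate kinase genes, whose products start coenzyme A synthesis. Its row held 140, 133 and 94 RPM in adipocytes and 41, 26.7 and 45.3 RPM in preadipocytes (1.70, SE 0.37, edgeR BH-adjusted p = 0.0447). None of the 3 passed under TMM, with edgeR BH-adjusted p of 0.0668 for mir-26, 0.066 for mir-181 and 0.0808 for mir-103/107.

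The last of the 8, mir-299, comes from the imprinted DLK1-DIO3 domain, whose miRNAs are expressed from the maternal chromosome. It was a low row, with 247, 201 and 189 reads in adipocytes (14.3, 11.5 and 8.68 RPM) and 42, 28 and 92 reads in preadipocytes (2.21, 1.77 and 3.76 RPM). The groups did not overlap (2.15, SE 0.42, edgeR BH-adjusted p = 0.0427). Of 23 families listed for this domain, 9 had a row and 3 were tested. The other two tested, mir-541 and mir-134, had 1 to 26 and 0 to 21 reads per library and did not pass. Without preadipocyte replicate 3, where the remaining preadipocyte libraries had no mir-134 read, mir-134 passed as higher as well (edgeR BH-adjusted p = 0.0282). The row had passed the low-count filter through its adipocyte reads, and the library left out held the only preadipocyte reads. That call therefore follows from the filter and the removal and is no separate support.

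**Figure D2:**
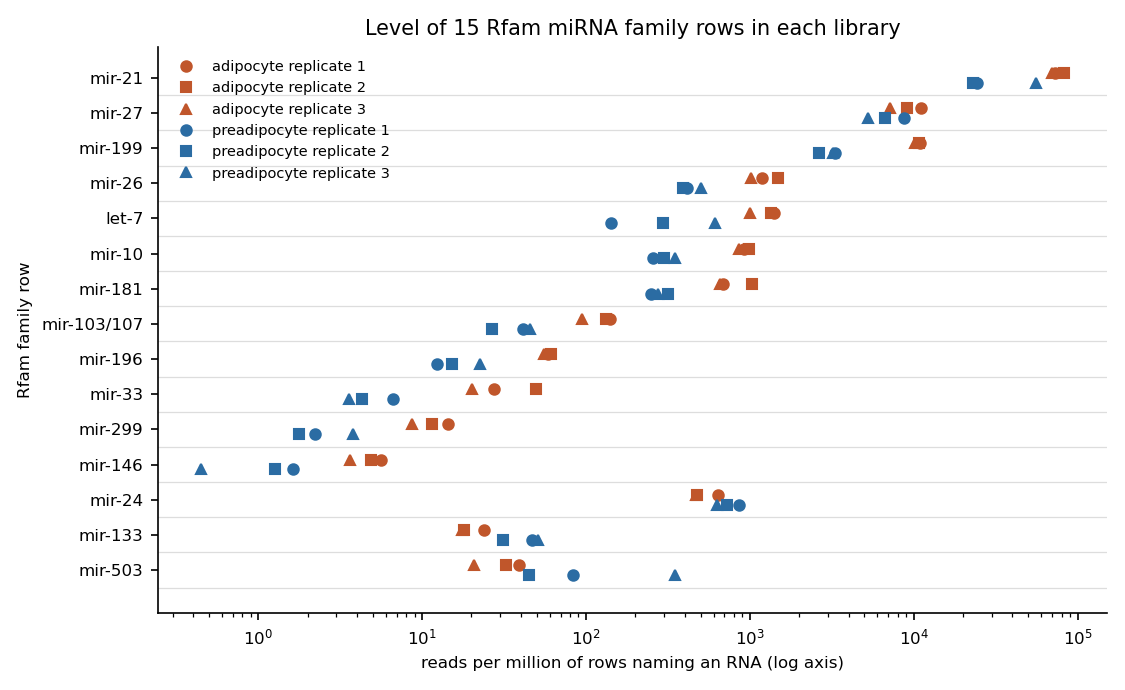
Level of 15 Rfam miRNA family rows (y axis) in RPM (x axis, log scale), each point a library (red adipocytes, blue preadipocytes, marker shape by replicate). For the 8 families that passed, for example mir-199 at 10234 RPM or more in adipocytes and 3306 RPM or less in preadipocytes, the red and blue points do not overlap.

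Several abundant families did not pass although their groups lay apart. The mir-21 row held 72668, 82399 and 69527 RPM in adipocytes and 24471, 23145 and 55948 RPM in preadipocytes, of which preadipocyte replicate 3 was nearest to the adipocytes. Its log2 difference was 1.12 (SE 0.37, edgeR BH-adjusted p = 0.112), and 1.65 without that library (edgeR BH-adjusted p = 0.00868). The let-7 row, of a family tied to the timing of differentiation, held 1411, 1343 and 999 RPM in adipocytes and 143, 294 and 612 RPM in preadipocytes. Here too preadipocyte replicate 3 was the highest of its group (1.84, SE 0.54, edgeR BH-adjusted p = 0.0848). Without it the let-7 difference was 2.52 (edgeR BH-adjusted p = 0.0171). In both rows the library left out was the preadipocyte one nearest to the adipocytes, so leaving it out had to widen the difference. The smaller adjusted p-values follow from that and are no separate support. Of all rows tested, 22% passed in that fit.

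Just short of the threshold were mir-378, hosted by the mitochondrial regulator PPARGC1B, and mir-30. The mir-378 row held 343, 352 and 306 RPM in adipocytes and 158, 153 and 125 RPM in preadipocytes (1.20, SE 0.27, edgeR BH-adjusted p = 0.0504). The mir-30 row, whose family is described as favouring fat cell differentiation, held 790, 877 and 427 RPM and 209, 246 and 269 RPM (1.53, SE 0.35, edgeR BH-adjusted p = 0.0514). For mir-101 the reads were 1325, 1031 and 335 in adipocytes and 90, 31 and 249 in preadipocytes. Its log2 difference of 3.15 (SE 0.84) was larger than any among the 8, but its adipocyte libraries spread from 15.4 to 76.6 RPM (edgeR BH-adjusted p = 0.0615).

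Lower levels in adipocytes were few. The row of mir-133, a muscle family, held 23.7, 17.9 and 17.5 RPM in adipocytes and 46.7, 31 and 51.2 RPM in preadipocytes, without overlap (-1.12, SE 0.35, edgeR BH-adjusted p = 0.104). The row of mir-503, which restrains the cell cycle, held 38.8, 32.5 and 20.8 RPM in adipocytes and 82.8, 44.8 and 351 RPM in preadipocytes (-2.38, SE 0.81, edgeR BH-adjusted p = 0.116). These were the only 2 of the 87 tested families with every adipocyte library below every preadipocyte library on the table scale. The difference of mir-503 was -1.06 without preadipocyte replicate 3. Both passed as lower in edgeR when the family rows alone were fitted and scaled on their own sum, where they were the only 2 of 92 families that did, at -2.15 and -3.17 (edgeR BH-adjusted p = 0.0187 for each). That scale lowered the families as a set, with a median of -0.33 over the 92, beside 0.71 over the 87 on table totals. The -3.17 of mir-503 includes preadipocyte replicate 3. Rows mir-133 and mir-503 were also among the 3 families that DESeq2 called lower.

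The mir-24 row, from the transcripts of mir-23 and mir-27, held 638, 474 and 468 RPM in adipocytes and 858, 725 and 629 RPM in preadipocytes. Adipocyte replicate 1 lay just above preadipocyte replicate 3, so the groups overlapped (-0.49, SE 0.27, edgeR BH-adjusted p = 0.29). It passed as lower in DESeq2 (-0.76, DESeq2 BH-adjusted p = 0.00257). It also passed as lower under both alternatives added after seeing the data, at -1.26 on the family rows without mir-21 (edgeR BH-adjusted p = 0.0424) and at -1.13 when summed with the known rows (edgeR BH-adjusted p = 0.0453). The sign of the mir-27, mir-23, mir-143 and mir-221 differences depended on the scale. They were 0.41, 0.18, 0.71 and 0.56 per table total and -0.72, -0.90, -0.23 and -0.59 per family reads.

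**Figure D3:**
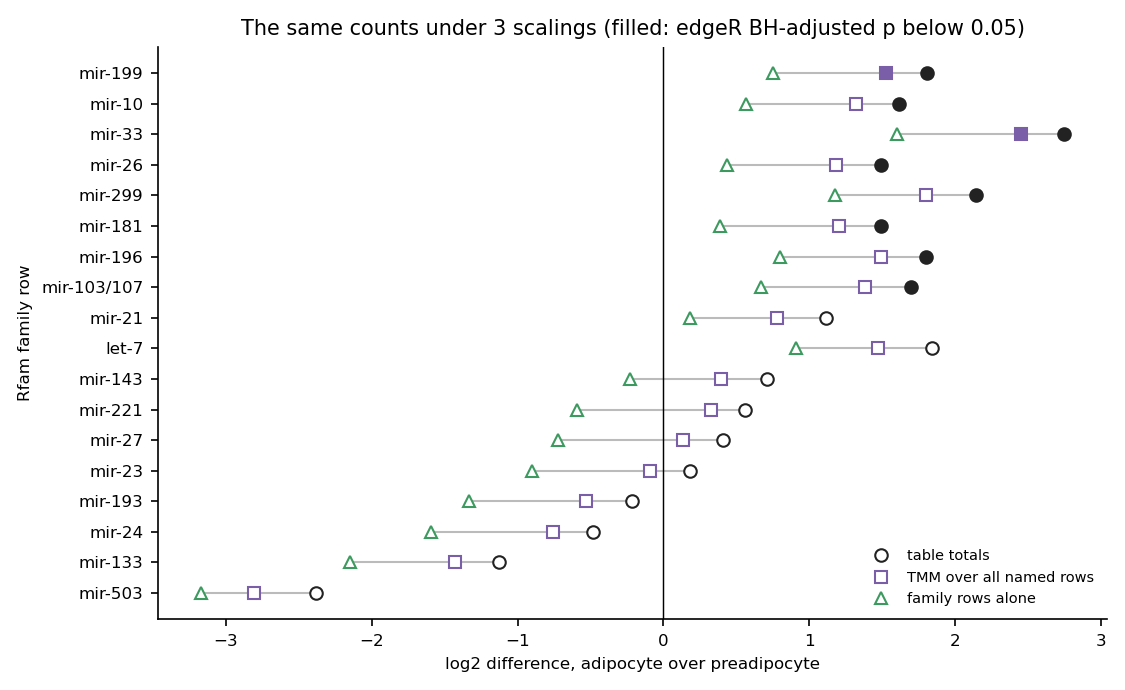
Log2 difference of adipocytes over preadipocytes (x axis) for 18 Rfam miRNA family rows (y axis) with libraries scaled on table totals (circles), on TMM factors (squares) or on the family rows alone (triangles). Filled markers passed an edgeR BH-adjusted p of 0.05. Each family moves left from circle to triangle by about 1 log2 unit, and 8 circles, 2 squares and 0 triangles are filled.

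Families were also read by lists, chosen with earlier results of these data known. Of 15 families described as promoting fat cell differentiation, 14 were tested, 4 rose (mir-199, mir-26, mir-181 and mir-103/107), 0 fell, and 13 had a positive difference, with a median of 1.45. Of 15 described as restraining it, 12 had a row and 10 were tested. Among them 1 rose, mir-33, 0 fell, and 7 had a positive difference, with a median of 0.89. Of 12 mesenchymal families, 10 had a row and 9 were tested, 3 rose (mir-199, mir-10 and mir-196) and 0 fell, with a median of 1.18. Over all rows tested 5.8% rose and the median was 0.22. Over the 87 family rows tested, from which the lists are drawn, 8 rose and the median was 0.71. The mir-199 row is on both the promoting and the mesenchymal list and counts in each. Without preadipocyte replicate 3 the families that rose numbered 9 of the promoting, 4 of the restraining and 5 of the mesenchymal list, where 14.1% of all rows rose. The library left out was the preadipocyte one most correlated with the adipocytes over the tested families. The larger counts are therefore no separate support. Scaled on the family rows alone in the fit over all rows, 0 members of these 3 lists passed in edgeR. The list medians were then 0.38, -0.22 and 0.57, beside -0.31 for the family rows tested and -0.87 for all rows tested.

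The family rows were next set against the known miRNA rows of the same family, matched by family name. A match was found for 114 of the 179 rows, and in 67 families both sides had a mean of at least 10 reads per library. In those, the Rfam row held a median of 24.9 reads for every 100 in the known rows, summed over libraries, with a range from 0.0957 to 15048. The known-miRNA families can be wider than the Rfam ones. The known mir-15 family, for instance, includes the miR-16 rows, for which Rfam has a row of its own.

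In 8 families the Rfam row exceeded the known rows in all 6 libraries. They were mir-8/mir-141/mir-200, mir-133, mir-132, mir-210, mir-503, mir-299, mir-425 and mir-193. The mir-132 row held 4749, 4679 and 4336 reads in adipocytes and 2159, 2369 and 1571 reads in preadipocytes. The known miR-132 row held 10, 27 and 12 reads and 1, 4 and 4 reads, and its partner miR-212 held 2 to 34 reads per library. The known rows alone thus show almost none of the reads that the table places in this CREB-driven family. The row of mir-8/mir-141/mir-200, an epithelial family, held 888 to 2272 reads per library, while each of its 5 known rows (miR-141, miR-200a, miR-200b, miR-200c and miR-429) held 0 to 9.

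Across the 65 tested families with such a match, the differences of the Rfam row and of the known rows had a Pearson correlation of 0.61 and a Spearman correlation of 0.60, and 53 had the same sign. This is a description across families of the same 6 libraries, whose depth and scaling both sides share. Families in which both sides moved by like amounts were mir-33, with 2.74 for the Rfam row and 2.48 for the known rows, mir-103/107 with 1.70 and 1.63, and mir-26 with 1.49 and 1.22. For mir-199 the values were 1.81 and 2.44, but its known rows moved unevenly. Known miR-199a-3p held 156879, 125705 and 127960 reads in adipocytes and 345, 124 and 244 in preadipocytes. Known miR-199a-5p held 77543, 94481 and 106041 reads and 57323, 32357 and 54788 reads. In mir-181 the Rfam row differed by 1.49 and the known rows by 0.15, and in mir-21 by 1.12 and -0.28.

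**Figure D4:**
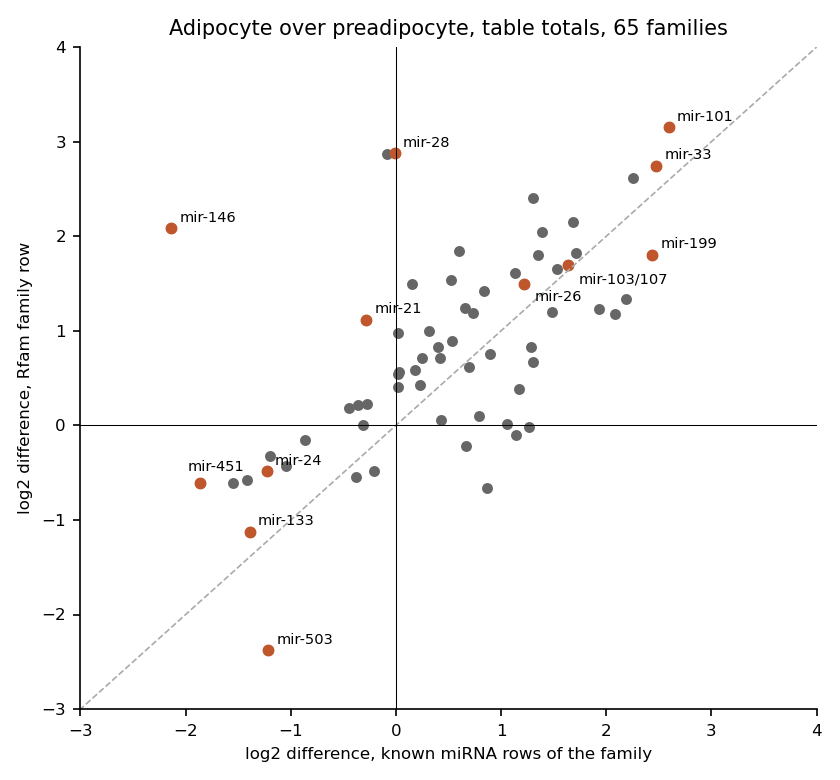
Log2 difference of adipocytes over preadipocytes in the known miRNA rows of a family (x axis) and in its Rfam row (y axis) for 65 families, both per table total. The dashed line marks equal differences. Most families lie in the upper right, mir-33 (2.48 and 2.74) is near the line, and mir-146 (-2.14 and 2.08) lies far from it.

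The ratio of the Rfam row to the known rows, in which library size cancels, changed in 1 family, mir-146. This family is induced by NF-kB and dampens innate immune signalling. Its Rfam row held 97, 86 and 79 reads in adipocytes and 31, 20 and 11 reads in preadipocytes. The known miR-146a row went the other way, with 1, 1 and 4 reads in adipocytes and 199, 81 and 73 reads in preadipocytes, and the known miR-146b row held 17, 32 and 32 reads and 8, 13 and 11 reads. Thus 539, 261 and 219 reads fell in the Rfam row for every 100 known reads in adipocytes, and 15, 21.3 and 13.1 in preadipocytes. The log2 ratio differed by 4.23 (SE 0.4, limma BH-adjusted p = 0.00374), and 1.49% of the 67 families compared passed.

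The mir-146 ratio passed under every alternative run, at 3.85 to 4.48. When the Rfam row was summed with the known rows, an alternative added after seeing the data, the family difference was -0.33 and did not pass (edgeR BH-adjusted p = 0.68). The level of the Rfam row alone differed by 2.08 (SE 0.54, edgeR BH-adjusted p = 0.061).

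The ratio of mir-21 was 13.1, 14.4 and 10.7 per 100 known reads in adipocytes and 3.43, 3.2 and 7.65 in preadipocytes. The groups did not overlap, with a log2 difference of 1.53 (SE 0.39, limma BH-adjusted p = 0.104). The ratio of mir-181 was 167, 279 and 186 per 100 in adipocytes and 65.9, 100 and 85.8 in preadipocytes (1.31, SE 0.29, limma BH-adjusted p = 0.104). Before adjustment, 17 of the 67 families had p below 0.05, and 46 had a higher ratio in adipocytes. Without preadipocyte replicate 3 the ratio passed in 21 families, 16 higher and 5 lower, mir-21, let-7 and mir-181 among the higher ones. For mir-21 and let-7 that library had the preadipocyte ratio nearest to the adipocytes, so leaving it out had to widen the difference. The larger count of families is no separate support.

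**Figure D5:**
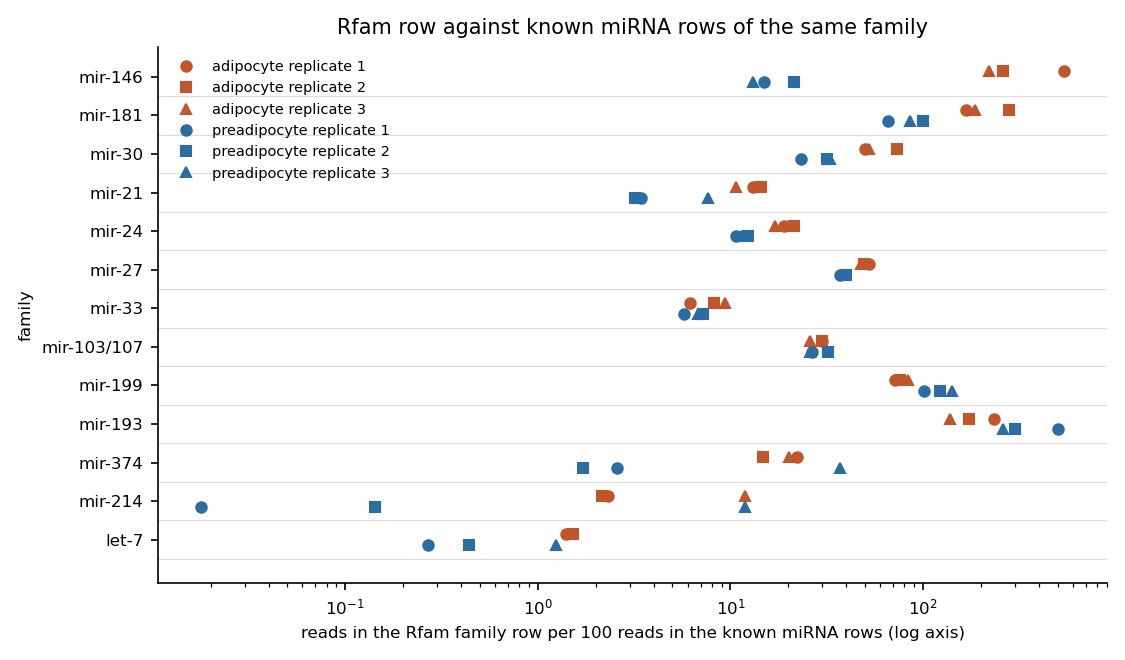
Reads in the Rfam family row for every 100 reads in the known miRNA rows of the family (x axis, log scale) for 13 families (y axis), each point a library (red adipocytes, blue preadipocytes, marker shape by replicate). In mir-146 all adipocytes (219 or more) lie above all preadipocytes (21.3 or less), in mir-103/107 the groups overlap, and in mir-374 and mir-214 preadipocyte replicates 1 and 2 lie far to the left.

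The mir-27 row varied less across libraries than either known row of its near-identical members. Known miR-27a-3p held 263217 and 377035 reads in adipocyte replicate 2 and preadipocyte replicate 1 and 30386 to 47219 in the other libraries. Known miR-27b showed the reverse, with 58854 and 70444 reads in those 2 libraries and 235287 to 324871 in the others. The Rfam mir-27 row, which covers both, ranged from 105468 to 192025 reads over the 6 libraries, and the summed known rows from 265795 to 447655, a range of like width. For every 100 known mir-27 reads it held 52.3, 49.5 and 47.5 in adipocytes and 37, 39.7 and 38.7 in preadipocytes, a narrow range within each group (log2 difference 0.37, SE 0.17, limma BH-adjusted p = 0.194).

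Preadipocyte replicate 3 stood apart in the family rows. Its log2 levels over the 87 tested families correlated by 0.962, 0.961 and 0.97 with adipocyte replicates 1, 2 and 3 (Pearson). With preadipocyte replicates 1 and 2 the values were lower, at 0.946 and 0.935. By this measure, fits without preadipocyte replicate 3 leave out the preadipocyte library most like the adipocytes. In 9 of the 87 tested families its level was over 3 times that of both other preadipocyte libraries, and in 3 it was below both by more than the same factor. For the other libraries the same counts were 0 to 2 above and 0 to 3 below. The 9 were mir-148/mir-152, mir-15, mir-28, mir-214, mir-140, mir-134, mir-503, mir-374 and mir-188. The mir-374 row held 46, 24 and 1238 reads in preadipocyte replicates 1, 2 and 3 and 1389, 1100 and 1108 in adipocytes. The mir-214 row, from the transcript of mir-199, held 2, 12 and 1133 reads and 404, 365 and 1378 reads. With all libraries the log2 difference of mir-374 was 1.83 (edgeR BH-adjusted p = 0.399), and without preadipocyte replicate 3 it was 5.03 (edgeR BH-adjusted p = 0.00868). That of mir-214 was 1.18 (edgeR BH-adjusted p = 0.69) and 6.39 (edgeR BH-adjusted p = 0.0165). Both rows were picked because that library stood apart, so leaving it out had to widen the difference. The smaller adjusted p-values follow from that choice and are not a test.

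The known rows of mir-374, mir-214 and mir-15 showed smaller gaps. Known miR-374b held 1579, 1182 and 2723 reads in preadipocyte replicates 1, 2 and 3, and known miR-214 held 9347, 7213 and 7891. The Rfam mir-15 row held 0, 0 and 74 reads in those libraries and 133, 109 and 58 in adipocytes, while known miR-15a held 964, 581 and 1209 reads in preadipocytes. The counts of 0 allow up to 0.158 and 0.19 RPM in preadipocyte replicates 1 and 2, against 2.66 to 7.69 RPM in adipocytes. The mir-15 row did not pass with all libraries (edgeR BH-adjusted p = 0.378) and passed as higher without preadipocyte replicate 3 (edgeR BH-adjusted p = 0.0131). The library left out was the only preadipocyte one with mir-15 reads, so that call follows from its removal. The share of genome-feature reads, at 5.29% in preadipocyte replicate 3 and 18.5% and 18.9% in the other two, also differed between these libraries. Its part in the family rows was not tested.

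Families that mark other cell types were read from lists as well. The 3 muscle rows mir-1, mir-133 and mir-499 summed to 28.2 to 52.8 RPM in adipocytes and 41 to 60.2 RPM in preadipocytes. Families mir-206 and mir-208 had no row. The 3 rows did not move together, with log2 differences of 1.00 for mir-1, -1.12 for mir-133 and 0.38 for mir-499. The mir-1 row held 27, 9.25 and 8.31 RPM in adipocytes and 7.09, 7.27 and 7.9 RPM in preadipocytes, without overlap. Of the 6 blood families only mir-451 had a row, with 21 to 167 reads per library, and mir-142, mir-144, mir-150, mir-223 and mir-486 had none. The endothelial mir-126 row held 20 to 55 reads in adipocytes and 30 to 121 in preadipocytes, and the liver row mir-122 held 0 to 10. The neural rows summed to 21.3 to 23.8 RPM and 16.6 to 29.8 RPM, and the epithelial rows to 66.4 to 145 RPM and 49.1 to 67.3 RPM. On table totals with all libraries no family of these lists passed in edgeR. Without preadipocyte replicate 3 the epithelial row mir-192/215 passed as higher (1.66, edgeR BH-adjusted p = 0.0347). That library had the highest mir-192/215 level of the preadipocytes, so leaving it out had to widen the difference. With all libraries mir-133 passed as lower in DESeq2 and in the fit of the family rows alone, as given above. The mir-133 row also passed as lower on the family rows without mir-21 (-1.90, edgeR BH-adjusted p = 0.0424). The part of other cells in the results was not tested.

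The row of mir-302, a family of embryonic stem cells, was high in 1 library, with 101 reads in preadipocyte replicate 3 and 3 to 5 reads in each other library. Known miR-302a held 162 reads and known miR-302d 175 in that library, against 0 to 5 and 3 to 17 in the others. The row of the lentiviral element held 36 reads there, 1 in adipocyte replicate 3 and 0 in the others.

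Rows named for families of other kingdoms or of invertebrates were also filled. The 17 rows named for plant families summed to 156, 142 and 167 reads in adipocytes and 153, 128 and 177 reads in preadipocytes, or 7.67 to 9.02 RPM and 7.24 to 8.09 RPM. The largest, MIR168, held 33 to 40 reads in every library and MIR159 held 32 to 40. The 24 rows named for fly or worm families, a group formed after the names were seen, summed to 89.4 RPM in adipocyte replicate 1 and to 25.9 to 40.8 RPM in the other 5 libraries. The bantam row, for a fly growth regulator, held 94 reads in adipocyte replicate 1 and 12 to 17 in each other library. Of these rows 3 plant and 8 invertebrate ones were tested, and 0 passed in edgeR, with mir-46/mir-47/mir-281 at an unadjusted p of 0.0407.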

How the data were processed

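Small RNA of 3 adipocyte and 3 preadipocyte libraries was measured. The submitters' processing notes name Bowtie2, without a version. No source used here states the genome build or how reads with several matches were counted. The deposited counts are whole, unnormalized reads per row, per the file headers. The deposited columns headed TPM hold, as their values show, those counts divided by 1 constant per library. From that constant a total per library was computed, for an alternative scaling only. The 4 genome-feature rows stayed out of library sizes and tests (5.29% to 18.9% of reads).

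Counts of all 2209 rows that name an RNA were fitted with edgeR 4.0.16 in R 4.3.3 (filterByExpr at its defaults, glmQLFit, glmQLFTest, group as the only term, library size the summed counts with factors of 1), two-sided, with BH adjustment over the 948 rows left. Alternatives were TMM factors, scaling on the family rows, implied totals, other filters, DESeq2 1.42.0, a replicate block and leaving out each library, with the filtered rows kept. The log2 ratio of Rfam row to known rows (0.5 added) was tested with limma 3.58.1. A name with a slash was matched by its first part. Both steps were tested on simulated data. Shares were compared with exact permutation tests. Plots used matplotlib 3.10.9.

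Families named were the 10 most abundant, those past the threshold, the 2 most abundant and the 2 of smallest p in each list, and those with a changed ratio. Not every one is described, and others (mir-378, mir-30, mir-101, mir-503, mir-374, mir-214, mir-132, mir-15, mir-302, bantam) were chosen after their values were seen. The members and lists were chosen with earlier results of these data known.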

Additional observations from a re-analysis of the deposited data

How the results depend on the processing

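The 8 families past the threshold became 10 with implied library totals and 7 with a mean of at least 10 counts. They became 12 when summed with the known rows. Over all rows, the main fit called 62 of 948, and those fits called 75 of 948, 44 of 959 and 78 of 948. The family count was 2 with TMM factors, 0 when scaled on the family rows alone and 0 with TMM factors over them. Of all 948 rows, 33, 2 and 1 then passed. With the family rows alone in the fit, 2 of 92 passed. With no low-count filter 1 of 179 families passed, beside 12 of 2209 rows. On the family rows without mir-21 the count was 4 beside 64 of 948 rows, and with DESeq2 19 beside 195 of 934. Leaving out 1 library gave 0 to 28 families beside 1 to 209 of 948 rows. The ratio test then gave 1 to 21 families. Whether the replicate numbers pair the samples is not known. The deviations of same-numbered libraries correlated by -0.03, -0.13 and 0.10 over the tested rows, and those of differently numbered libraries by -0.18 to 0.20. With 3 libraries a group these values cannot decide it. With the replicate block 0 families and 1 of 948 rows passed in edgeR, and the mir-146 ratio still passed. At an unadjusted p below 0.05 that fit gave 22 of 87 families and 227 of 948 rows. The share of reads stayed higher in adipocytes throughout, by 1.50 to 6.68 percentage points.

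Signs turned in 7 of the 22 families followed across settings. On the family rows alone, with TMM over them, fitted alone and without mir-21, the log2 differences were -0.72, -0.42, -0.72 and -0.36 for mir-27, -0.90, -0.62, -0.90 and -0.58 for mir-23, -0.23, -0.051, -0.23 and -0.067 for mir-143, and -0.59, -0.27, -0.59 and -0.19 for mir-221. For mir-23 TMM gave -0.095, DESeq2 -0.10 and the sum with known rows -0.25. That sum gave -0.18 for mir-21, -0.33 for mir-146 and 0.034 for mir-193, which ranged from -0.60 to 0.086 when 1 library was left out (0.086 without adipocyte replicate 3 and 0.031 without preadipocyte replicate 1). The cause was not tested. With 3 libraries a group and rows of few reads, differences in rare families were often not detectable at this depth.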
